A study of Homo sapiens with 3 samples.

Results

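RNA pulled down from lysates of J82 cells, an established human bladder cancer cell line, by wild-type ZFP36L1 fused to glutathione S-transferase (GST) was set against RNA pulled down by GST alone. The comparison rests on 2 of the 3 libraries of the study, 1 for GST and 1 for GST-ZFP36L1 wild type. The other library, from a fusion in which ZFP36L1 residues were replaced by alanine (the Ala mutant, whose residues are not named in the labels), is quoted only for values beside them. All 3 proteins met lysate of confluent J82 cells with no other treatment named, so the background of cell and GST tag was shared. Transcripts were summed to 52989 genes, of which 13916 averaged 10 or more estimated counts over the GST and wild-type libraries and were compared, and 39073 did not reach that minimum.

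ZFP36L1 belongs to the tristetraprolin family of RNA-binding proteins. Its tandem zinc fingers bind AU-rich elements in the 3' untranslated regions (3' UTRs) of mRNAs, with UAUUUAU as the core site, and it recruits deadenylases that shorten the poly(A) tail and start decay. In epithelial and immune cells the family is best known for holding down mRNAs of cytokines, growth signals and cell cycle proteins. A pull-down of this kind measures which RNAs in a lysate stay with the bait protein, and GST alone shows what the tag and the beads retain.

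Library totals were close, at 19137867 (GST), 19845386 (wild-type ZFP36L1) and 19153483 (mutant) estimated counts, so counts can be read side by side. Values are shares of a library and do not show how much RNA each bait recovered. There was 1 library a side and no replicate to measure spread from, and the 95% intervals given are exact binomial (Clopper-Pearson) intervals on the split of counts that cover counting error only. The GST file carries another run code in its name than the wild-type and mutant files, so bait and run cannot be told apart in the comparison with GST. Genes of the mitochondrial genome took 10.6% of counts with GST, 15.5% with wild type and 7.53% with the mutant. The 11 urothelial and epithelial markers, of which 5 reached the minimum, summed to 17750, 1374 and 29811 counts with GST, wild type and mutant. KRT5, KRT19 and UPK3A, which mark urothelium, were listed at 0 in all 3 libraries, while keratin 18 (KRT18), which carried most of the sum, had 12980, 823 and 20794 counts. EPCAM went the other way at 11, 55 and 3, and UPK1A had 21, 20 and 24. Mesenchymal markers summed to 42244, 4136 and 29490 counts, most of them from vimentin (VIM, 41484, 2581 and 29118), and FN1 went the other way at 573, 1403 and 263. Leukocyte, erythroid and hepatocyte markers summed to at most 21 counts in any library.

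Most genes differed between the pull-downs. A gene is called higher or lower with wild-type ZFP36L1 when its scaled ratio to GST was at least 2 in that direction and its interval excluded a ratio of 1. On that rule 3462 genes were higher (24.9%) and 4724 were lower (33.9%), 58.8% in either direction. Among 11721 protein-coding genes, 25.8% were higher, 34% lower and 59.8% either. The middle of the distribution lay at a log2 ratio of -0.01, with quartiles at -1.83 and 1.01. The lower side reached farther than the upper, with the 5th percentile at -3.74 and the 95th at 2.01. Every count of called genes below is to be read against those shares.

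**Figure D1:**
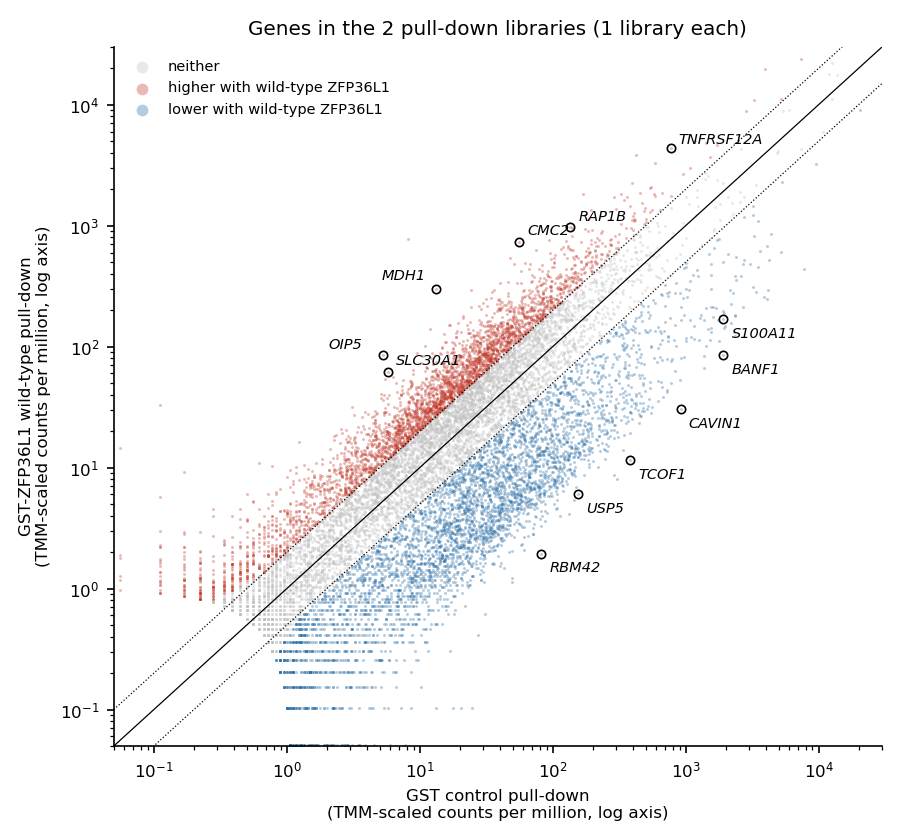
Scaled counts (CPM) of each gene in the GST library (x axis) and the wild-type ZFP36L1 library (y axis), both log axes, 1 point per gene. Red and blue mark genes called higher and lower, dotted lines mark 2-fold, and genes at 0 in a library fall off the axes. MDH1, OIP5 and SLC30A1 sit far above the diagonal and RBM42, TCOF1 and CAVIN1 far below it.

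The genes farthest above GST with at least 30 counts in both libraries, a minimum set after the values were seen because the unfiltered extremes rest on zeros, included enzymes, mitochondrial assembly factors and membrane proteins. Counts are listed from here on in the order GST, wild type, Ala mutant. MDH1, the cytosolic malate dehydrogenase, had 238, 5901 and 542 counts and a log2 ratio of wild type over GST of 4.51 (4.32 to 4.70). OIP5, a centromere protein that helps deposit the centromeric histone, had 95, 1661 and 98 (4.0, 3.71 to 4.32). CMC2, an assembly factor of cytochrome c oxidase, had 996, 14408 and 1322 (3.73, 3.64 to 3.83). In each case the wild-type library stood far above the other two in counts summed over the gene. For MDH1 and CMC2 most wild-type counts were assigned to an isoform annotated as non-coding. These were MDH1-214, a retained-intron isoform, at 92, 5243 and 12 counts, and CMC2-217, a processed transcript, at 669, 11215 and 630. COX17, the copper chaperone of cytochrome c oxidase, had 1339, 12230 and 1443 (3.07). ATP6V1C2, a subunit of the vacuolar proton pump, had 433, 5716 and 192 (3.60, 3.46 to 3.75). SLC30A1, the plasma membrane zinc exporter, had 103, 1214 and 103 (3.43, 3.15 to 3.74). PIGF and PIGX act in the assembly of glycosylphosphatidylinositol anchors. PIGF had 301, 2968 and 382 counts (3.18), and PIGX had 99, 1064 and 181 (3.30). UXS1, which makes UDP-xylose, had 172, 1731 and 105 (3.21). PTS, an enzyme of tetrahydrobiopterin synthesis, had 439, 4135 and 506 (3.11). CNN3, the actin-binding calponin 3, had 1691, 14722 and 1498 (3.0). The mRNA of the bait itself, ZFP36L1, was among these genes at 3012, 35580 and 2401 (3.44).

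Of those 20 genes 12 held UAUUUAU in the 3' UTR of their most abundant coding transcript. Among coding genes compared with a full-length match, 3018 of 9887 did (30.5%). That share varied with GC content. In 5 bins of equal numbers of genes, 1103 of 1978 held the site in the AU-richest and 278 of 1978 in the GC-richest. The 20 genes had a median GC content of 44.5%, and in the bin from 40.6% to 45.2% GC 738 of 1977 held it. The part of GC content in the 12 of 20 was not tested. Of the 3' UTRs of all 15841 annotated coding genes read the same way, 25.9% did. The 20 genes were not limited to full-length matches. ZFP36L1 was read from a transcript of 577 bases with a 3' UTR of 0 bases, so it counts as lacking the site. Windows of 30 bases around the site, the sequence that the zinc fingers are known to recognise, are shown for 4 of the 12. Windows of 4 genes from the unfiltered ranking below are added. They are DNA letters of GENCODE 29 transcripts read 5' to 3' on the transcript strand, GRCh38 coordinates, and capitals mark the 7-base site.
ATP6V1C2: agtgacagttgTATTTATttttttaagtta
SLC30A1: tagcagagaatTATTTATttctttacaatg
UXS1: aatgccgatttTATTTATgaaagtgggtac
CNN3: ttcttcaactgTATTTATtgctgcatttct
TRMT1L: gatttgatccaTATTTATccctaaatattt
EHBP1: atggttatgttTATTTATtacaatactgag
MITF: gggggtggtttTATTTATttcttttttgcc
LIN54: tttgtgatgtgTATTTATatacagtgtgca
The windows lie at chr2:10783393-10783422 (plus strand) for ATP6V1C2, chr1:211573139-211573168 (minus) for SLC30A1, chr2:106093641-106093670 (minus) for UXS1 and chr1:94897014-94897043 (minus) for CNN3. Those of the other genes lie at chr1:185118928-185118957 (minus) for TRMT1L, chr2:63046413-63046442 (plus) for EHBP1, chr3:69967702-69967731 (plus) for MITF and chr4:82926144-82926173 (minus) for LIN54. SLC30A1, EHBP1 and MITF hold the longer 9-base form UUAUUUAUU, and the others shown hold the 7-base core without it.

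Without the count minimum, the highest protein-coding genes were mostly absent from the GST library. TRMT1L, a homologue of a tRNA methyltransferase, had 2, 645 and 153 counts (7.89, 6.35 to 11.26). EHBP1, an adaptor between endocytic vesicles and actin, had 1, 281 and 5 (7.43, 5.52 to 13.32). MITF, the melanocyte lineage transcription factor, had 0, 126 and 42, and LIN54, a DNA-binding subunit of the DREAM complex, had 0, 60 and 0. Against a floor of 3 counts per library, MITF was at least 38.6-fold and LIN54 at least 18.4-fold higher. NOC3L, a nucleolar protein, was listed at 0, 92 and 0, which is at least 28.2-fold higher. ARHGEF7, an exchange factor for RAC and CDC42, had 3, 178 and 89 (5.55, 4.2 to 8.06).

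Some of these extremes may come from reads that several annotated transcripts could have taken, which was not tested. kallisto splits such reads by estimate, and an exact 0 can be a failed estimate rather than an absent RNA. AC012254.2, at 0, 1076 and 0, shares 95.4% of its 31-base words with other genes and lies across IER3IP1 on the same strand. IER3IP1, a small protein of the endoplasmic reticulum, itself had 862, 10506 and 679 counts (3.49, 3.39 to 3.59). GALNT4, at 0, 62 and 0, shares 93.2%. SFT2D3, at 0, 261 and 0, overlaps the 3' UTR of WDR33 on the opposite strand, and strand is not given in the sources used here, so the partners cannot be told apart. ADIPOR1, an adiponectin receptor and the highest of the 20 genes above, had 147, 15235 and 0 counts (6.57), and all of its 15235 wild-type counts were assigned to 1 retained-intron isoform.

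The lower side was led by mRNAs of high GC content. None of the 20 lowest genes with at least 30 counts in both libraries held the site in its 3' UTR, and their transcripts had a median GC content of 60.2% against 44.5% for the 20 highest and 48.0% for all genes compared. RBM42, an RNA-binding protein, had 1478, 38 and 952 counts (-5.38, -5.91 to -4.94). TCOF1, the nucleolar protein treacle, had 6815, 225 and 2272 (-5.04, -5.24 to -4.85). CAVIN1, a coat protein of caveolae, had 16434, 592 and 10640 (-4.91, -5.04 to -4.80). SF3A2, a subunit of the U2 small nuclear ribonucleoprotein, had 2385, 81 and 2155 (-4.99). Each had more counts with the mutant than with wild type. BANF1, a DNA-bridging protein of the nuclear envelope, was among the most abundant of them at 34496, 1669 and 26098 (-4.49, -4.56 to -4.42). TUBB4B, a beta tubulin, had 24634, 1297 and 35221 (-4.37). FLNA, the actin crosslinker filamin A, had 6017, 274 and 8445 (-4.57). EHMT2, a histone H3 methyltransferase, had 1462, 64 and 1640 (-4.62), and XRCC1, a scaffold of DNA single-strand break repair, had 1278, 55 and 1164 (-4.65).

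Among genes listed at 0 with wild type, 27 had over 100 counts with GST, and 5 stood at 0 with GST and over 100 with wild type. LMNB2, lamin B2, was listed at 0 with wild type and at 127 counts with the mutant, and was at least 220.0-fold lower than with GST against the floor of 3. RIOX1, a nucleolar histone demethylase and hydroxylase, had 428, 0 and 71, which is at least 155.1-fold lower. DPP3, a cytosolic peptidase, had 415, 0 and 5, and MDC1, a DNA damage mediator, had 211, 0 and 260. ANP32E, a histone H2A.Z chaperone, had 441, 2 and 15 (-7.58, -10.96 to -6.04). LMNB2 and MDC1 hold the site in their 3' UTRs all the same.
LMNB2: tttttaatggaTATTTATttttttacattg
MDC1: tattttatttgTATTTATagttttttattt
The LMNB2 window is chr19:2429765-2429794 (minus strand) in a 3' UTR of 57.4% GC, and the MDC1 window is chr6:30700224-30700253 (minus) in a 3' UTR of 38.0% GC. The MDC1 transcript that holds it carried 30 of the 211 counts with GST.

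Where the site lay in the transcript went with the ratio. Of 9887 coding genes with a full-length match to the annotation, 3018 held UAUUUAU in the 3' UTR, and 1390 of them were higher and 254 lower, with a median log2 ratio of 0.93. In 317 genes the site lay only in the coding sequence, and 97 were higher and 47 lower (median 0.48). Only 44 genes had it in the 5' UTR alone, with 13 higher and 10 lower (-0.18). The 6507 genes without it had 1069 higher and 3078 lower, and a median of -0.83. Set against genes of like GC content, the median was 0.47 with the site in the 3' UTR and -0.06 with it only in the coding sequence. It was 0.12 with the site in the 5' UTR alone and -0.26 without it. For the 768 genes with the 9-base form UUAUUUAUU the median was 1.0, and for the 2250 with the 7-base core without it 0.89. Genes with AUUUA but no UAUUUAU numbered 3655, with 934 higher, 946 lower and a median of 0.19, and the 3214 genes with no AUUUA had 245 higher, 2189 lower and a median of -2.26. AUUUA is contained in UAUUUAU and was found in 60.4% of annotated 3' UTRs, UUAUUUAUU in 6.51%. For genes with a single site, medians were 0.76, 0.76 and 0.78 for a site in the first, middle and last stretch of equal length, and 0.35, 0.43 and 0.65 set against genes of like GC content.

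The site is AU-rich, and the ratio fell with GC content across genes (Spearman's rho -0.58 over the genes compared, a description in which genes share libraries and base composition). In 5 bins of transcript GC content with equal numbers of genes, genes with the site in the 3' UTR had the higher median each time. From the AU-richest to the GC-richest bin those medians were 1.12, 1.08, 0.79, 0.22 and -0.35, beside 0.71, 0.56, -0.15, -1.76 and -2.88 for genes without the site anywhere. In the GC-richest bin, from 58.0% to 74.5% GC, 45 of 278 genes with the site were higher and 97 lower, against 30 higher and 1425 lower of 1684 without it. The distance between the medians thus went from 0.41 in the AU-richest bin to 2.53 in the GC-richest. Without regard to GC content, genes with short 3' UTRs were lower. Medians were -1.70 for the 2019 genes under 300 bases, -0.39 for 3124 of 300 to under 1000, and 0.74 for 830 of 4000 or more. Their median GC contents were 52.6%, 51.0% and 41.7% in that order. In the AU-richest bin, genes under 300 bases had 54 higher and 34 lower of 208 (median 0.28), beside 1.03 at 4000 or more. In the middle bin medians were -0.76 under 300 bases, 0.56 at 1000 to under 2000 and 0.16 at 4000 or more. The part of GC content and of 3' UTR length in the single-gene ratios was not tested.

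**Figure D2:**
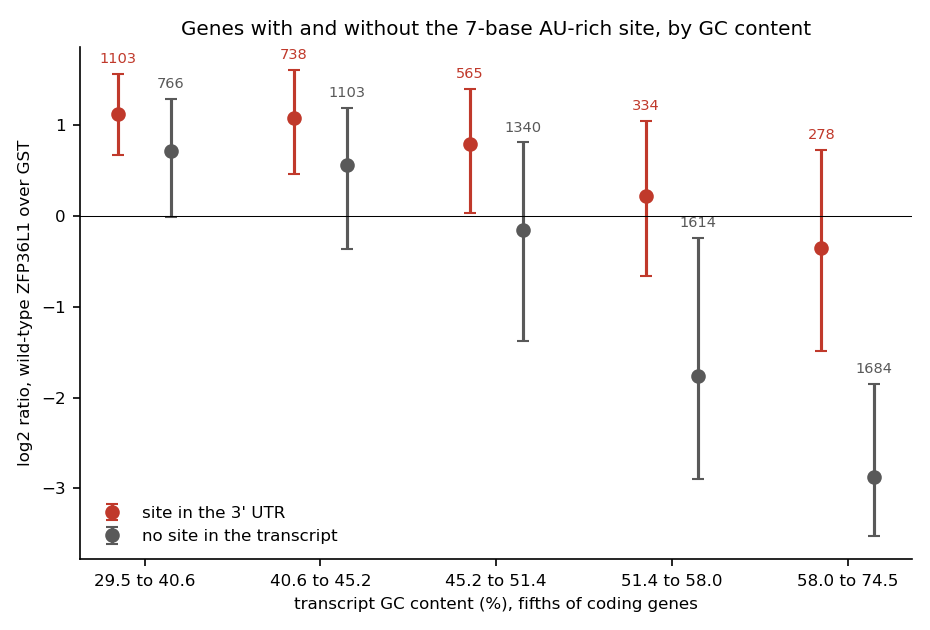
Median log2 ratio of wild-type ZFP36L1 over GST (y axis) for genes with UAUUUAU in the 3' UTR (red) and with no site in the transcript (grey), in 5 bins of transcript GC content (x axis, percent). Bars span the quartiles of genes and the numbers are genes. Red lies above grey in each bin, from 1.12 against 0.71 at the left to -0.35 against -2.88 at the right.

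Gene classes by function were spread on both sides of the background. Of 96 classes defined by gene symbol or by written lists, 36 are described here, chosen after their values were seen for size of the median, for role or for a split within the class. Their medians ran from -3.27 for the pentose phosphate pathway to 1.35 for sequence-specific mRNA decay factors.

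**Figure D3:**
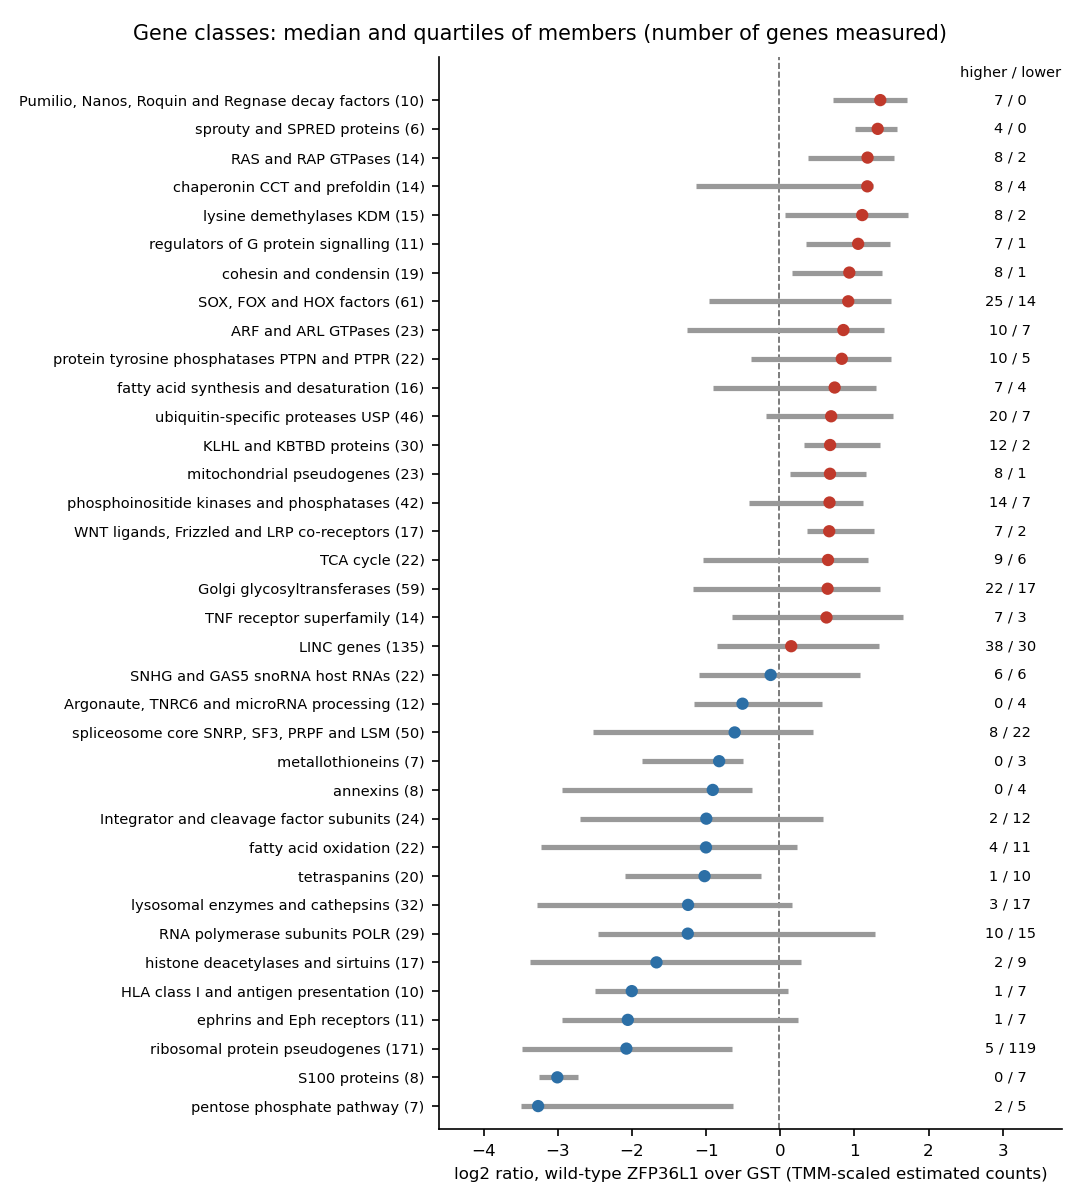
Median (point) and quartiles (bar) of the log2 ratio of wild-type ZFP36L1 over GST (x axis) for each gene class, with the number of genes measured in brackets and the numbers called higher and lower at the right. Red marks medians above 0 and blue medians below 0. The 10 decay factors lie highest, and the S100 proteins and the pentose phosphate pathway lowest.

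Of 10 Pumilio, Nanos, Roquin, Regnase and SAMD4 decay factors, which recognise other elements in mRNAs and trigger their decay, 7 were higher and 0 lower (median 1.35). NANOS1 had 135, 814 and 146 counts (2.47), ZC3H12C, of the Regnase family, 84, 337 and 63 (1.88), and RC3H1, Roquin-1, 277, 1046 and 199 (1.79). PUM2, the most abundant of the higher members, had 1738, 4475 and 1491 (1.24). The 6 sprouty and SPRED proteins, feedback inhibitors of RAS-ERK signalling, had 4 higher and 0 lower (median 1.31), and all 6 held the site. SPRY4 had 3741, 12379 and 4061 counts (1.61, 1.55 to 1.66). Regulators of G protein signalling had 7 of 11 higher and 1 lower (median 1.05). RGS2 had 82, 578 and 109 counts (2.69), and RGS12 went the other way at 121, 15 and 184 (-3.09).

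RAS and RAP GTPases, the switches upstream of ERK, were 8 of 14 higher and 2 lower, with a median of 1.18 (0.53 set against like GC content). RAP1B led at 2414, 18856 and 1784 counts (2.84, 2.78 to 2.91). NRAS, picked after its value was seen, had 3193, 9218 and 2011 (1.41). HRAS, a close relative of NRAS, was lower at 4891, 843 and 6877 (-2.66, -2.76 to -2.55), as was RRAS at 5657, 1121 and 7603 (-2.46). NRAS holds 1 site in its 3' UTR and HRAS 0. The mitochondrial Miro GTPases, picked after their values were seen, split as well. RHOT1 had 611, 3159 and 472 (2.25, 2.12 to 2.38), and RHOT2 had 849, 89 and 1671 (-3.37, -3.71 to -3.06). ARF and ARL GTPases, which drive vesicle budding, had 10 of 23 higher and 7 lower, with a median of 0.85 (0.24 set against like GC content). ARL6 stood at 73, 372 and 88 (2.22) and ARL2 at 1595, 125 and 3031 (-3.79).

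Receptors at the cell surface were mixed. TNF receptor superfamily members, which bind death and inflammatory ligands, had 7 of 14 higher and 3 lower (median 0.62). TNFRSF12A, the receptor for TWEAK, was one of the most abundant mRNAs of the wild-type pull-down at 13815, 85729 and 14245 counts (2.51, 2.49 to 2.54). FAS had 66, 253 and 59 (1.81), whereas TNFRSF1A, the main TNF receptor, had 434, 71 and 550 (-2.72). Frizzled receptors for WNT ligands had 5 of 8 higher and 1 lower (median 1.11), and the WNT ligands themselves 1 of 7 in each direction (0.37). FZD5 had 88, 304 and 79 counts (1.66). Ephrins and their Eph receptors had 1 of 11 higher and 7 lower, with a median of -2.06 that became -0.42 set against genes of like GC content. Their transcripts had a median of 59.0% GC. EPHA2, the single higher member, was also the most abundant at 2494, 7370 and 2744 (1.44). Among protein tyrosine phosphatases 10 of 22 were higher and 5 lower. PTPRA had 2026, 7745 and 1837 (1.81), and PTPRU, another receptor type, 1198, 70 and 771 (-4.21).

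Developmental transcription factors and chromatin enzymes were split. SOX, FOX and HOX factors had 25 of 61 higher and 14 lower with a median of 0.92, although their transcripts were GC-rich (median 54.3%), and set against genes of like GC content the median was 1.49. HOX genes had 14 of 29 higher and 8 lower (0.98), SOX genes 4 of 8 and 1 (1.03), and FOX genes 7 of 24 and 5 (0.15). HOXB5 had 484, 2585 and 546 counts (2.30) and HOXB2 2078, 7556 and 1369 (1.74). HOXB7, a neighbour in the HOXB cluster picked after its value was seen, had 1610, 493 and 1491 (-1.83). SOX12 was lowest at 3047, 374 and 3157 (-3.15). Lysine demethylases, which remove histone methyl marks, had 8 of 15 higher and 2 lower (median 1.11). KDM3A had 313, 2145 and 375 counts (2.65), and KDM1A, the demethylase LSD1, 825, 340 and 1443 (-1.40). Histone deacetylases and sirtuins had 2 of 17 higher and 9 lower, with a median of -1.67 that became -0.58 set against genes of like GC content. HDAC1 was the highest at 2519, 8646 and 2556 (1.66), and HDAC10 the lowest at 263, 10 and 339 (-4.77). SMC proteins and subunits and regulators of cohesin had 8 of 13 higher and 0 lower (median 1.06, and 0.25 set against like GC content), led by STAG2 at 2173, 11337 and 1153 counts (2.26), while of the 6 condensin-specific subunits 0 were higher and 1, NCAPH2 at 611, 61 and 1350 (-3.43), was lower.

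Of 50 core spliceosome genes 8 were higher and 22 lower (median -0.62). U2AF1, which reads the 3' splice site, had 3089, 231 and 2808 counts (-3.86), and LSM8, of the U6 ring, 759, 3130 and 719 (1.92). Cleavage and polyadenylation factors (CPSF and CSTF) had 0 of 10 higher and 8 lower (-1.42), whereas Integrator subunits, measured beside them, had 2 of 14 higher and 4 lower (0.15). CPSF7 had 2917, 487 and 1942 (-2.70), and INTS14 320, 1207 and 330 (1.79). The microRNA pathway had 0 of 12 higher and 4 lower (-0.51), with DGCR8, the partner of Drosha, at 555, 63 and 612 (-3.25). Its AGO1 and AGO2 genes, picked after their values were seen, hold 4 and 7 sites. AGO1 stood at 711 counts for GST and 372 for wild type (-1.05), and AGO2 311, 197 and 336 (-0.78). RNA polymerase subunits had 10 of 29 higher and 15 lower (-1.25), and set against genes of like GC content their median was 0.23. Symbol prefixes do not divide the 3 enzymes cleanly, since some subunits are shared. By prefix, POLR1 genes had 1 of 5 higher and 3 lower (-2.46), POLR2 genes 4 of 15 and 10 (-1.44), and POLR3 genes 5 of 9 and 2 (1.04). The medians set against like GC content were -1.95, -0.02 and 0.48 in that order. POLR2E, shared by all 3 enzymes, had 2623, 265 and 5627 (-3.43), and POLR3K 846, 4676 and 1163 (2.35).

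Metabolic classes differed within themselves. In the pentose phosphate pathway, which makes NADPH and ribose, 5 of 7 genes were lower and 2 higher. The 2 higher were the pair that interconverts the pentose phosphates, RPIA at 645, 5688 and 674 counts (3.02, 2.90 to 3.14) and RPE at 963, 2406 and 822 (1.2). Transketolase (TKT) had 9749, 999 and 12521 (-3.41), transaldolase (TALDO1) 2831, 255 and 3278 (-3.59), and PGD, which yields NADPH, 2642, 298 and 3199 (-3.27). Fatty acid synthesis genes had 7 of 16 higher and 4 lower (0.73), and fatty acid oxidation genes 4 of 22 higher and 11 lower (-1.0). ACLY, which supplies acetyl-CoA for synthesis, had 3944, 13215 and 3034 (1.62), while FASN, the synthase, had 8225, 769 and 7017 (-3.54, -3.65 to -3.43). ECHS1, an enoyl-CoA hydratase of oxidation, had 1836, 97 and 1902 (-4.36), and ACADM 1627, 4259 and 410 (1.27). In the TCA cycle 9 of 22 genes were higher and 6 lower. DLD, the dihydrolipoamide dehydrogenase of the cycle, had 699, 2890 and 385 (1.93), and IDH3B, a subunit of isocitrate dehydrogenase, 1673, 129 and 2524 (-3.81). Metallothioneins, which bind zinc, had 0 of 7 higher and 3 lower. MT2A, one of the most abundant mRNAs, had 87175, 77992 and 157173 counts (-0.28), which met neither call.

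The 8 S100 calcium-binding proteins had 0 higher and 7 lower (median -3.01), with S100A11 at 34404, 3291 and 27180 counts (-3.51, -3.56 to -3.45). Annexins had 0 of 8 higher and 4 lower. ANXA2 had 17494, 1593 and 13505 (-3.58), beside ANXA5 at 15252, 10579 and 8459 (-0.65), which met neither call. Genes of antigen presentation had 1 of 10 higher and 7 lower, but set against genes of like GC content their median moved from -2.0 to 0.22. B2M, the light chain of class I molecules, had 9095, 22077 and 7641 (1.16), and HLA-E 2795, 310 and 2561 (-3.29). Lysosomal enzymes had 3 of 32 higher and 17 lower, with cathepsin D (CTSD) at 2596, 173 and 3232 (-4.02). Tetraspanins had 1 of 20 higher and 10 lower, with a median of -1.02 that became -0.030 set against genes of like GC content. CD151 stood at 3222, 325 and 5350 (-3.43). Golgi glycosyltransferases lay on both sides, with 22 of 59 higher and 17 lower. B4GALT1 had 538, 2328 and 721 (1.99), and B4GALT2, a related galactosyltransferase, 2315, 323 and 3477 (-2.96).

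Ubiquitin-specific proteases had 20 of 46 higher and 7 lower (0.69), from USP12 at 1189, 8520 and 991 counts (2.72) to USP5 at 2761, 118 and 2692 (-4.66). KLHL and KBTBD proteins, substrate receptors of cullin 3 ligases, had 12 of 30 higher and 2 lower, with KBTBD2 at 723, 4354 and 774 (2.47). Phosphoinositide kinases and phosphatases had 14 of 42 higher and 7 lower, led by PIP5K1A at 1299, 7359 and 1433 (2.38). The chaperonin CCT, which folds actin and tubulin, and its partner prefoldin had 8 of 14 higher and 4 lower (1.17, and 0.39 set against like GC content). CCT6A, the most abundant, had 9680, 25112 and 7548 (1.25), while CCT3, of the same ring, had 7600, 765 and 9570 (-3.43). Prefoldin divided likewise, with PFDN4 at 1461, 4556 and 928 (1.52) and PFDN6 at 4314, 587 and 3938 (-3.0).

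Members with and without the site in the 3' UTR are set side by side for some classes. Part of the classes were chosen for such a split, so the counts describe these classes and support nothing beyond them. Among SOX, FOX and HOX factors 16 of 25 genes with the site were higher and 0 lower, against 9 higher and 14 lower of 36 without it, at median GC contents of 52.9% and 55.8%. ARF and ARL GTPases had 7 higher and 0 lower of 10 with it, and 3 and 7 of 13 without. Ubiquitin-specific proteases had 12 and 0 of 22, and 8 and 7 of 24. Histone deacetylases and sirtuins had 2 and 1 of 6, and 0 and 8 of 11. KLHL and KBTBD proteins did not have more higher members with it, at 5 and 0 of 16 (median 0.67) against 7 and 2 of 14 without (0.83). The microRNA pathway had 0 higher and 1 lower of 6 with it, and 0 and 3 of 6 without. Median GC contents with and without it were 38.0% and 53.9% for ARF and ARL GTPases. They were 44.7% and 48.7% for ubiquitin-specific proteases, and 45.3% and 58.7% for histone deacetylases and sirtuins. KLHL and KBTBD proteins had 42.2% and 48.5%, and the microRNA pathway 45.1% and 48.3%. The part of GC content in these splits was not tested.

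**Figure D4:**
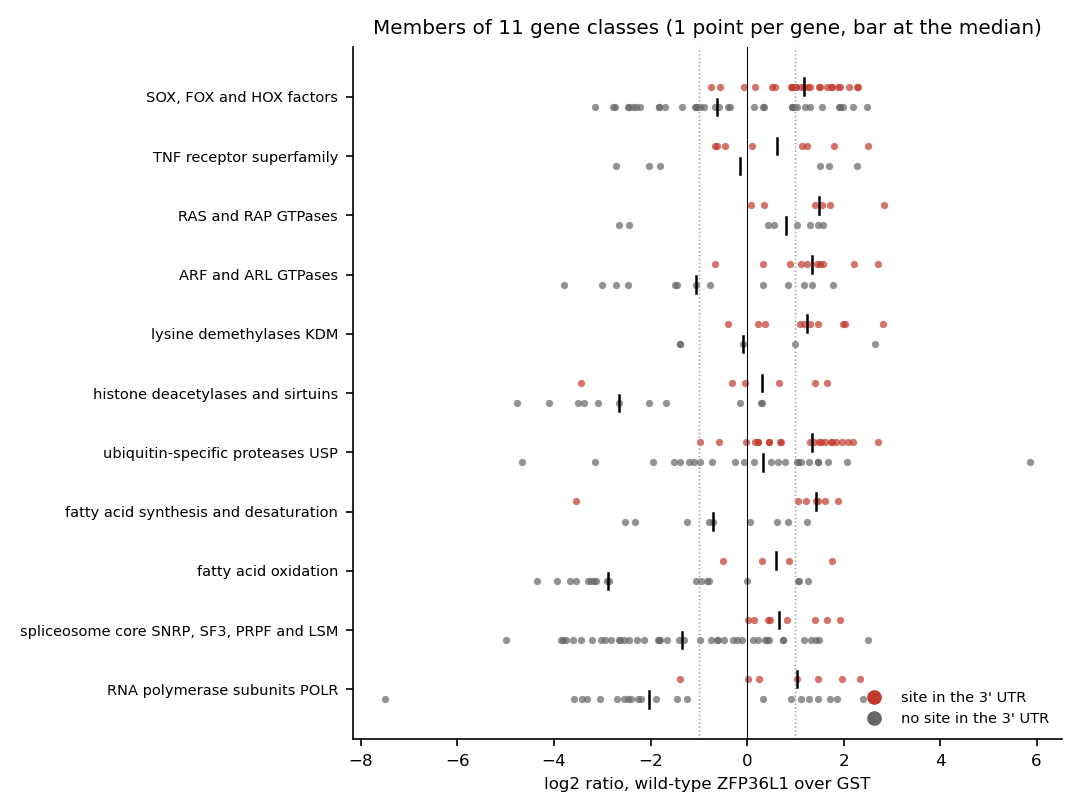
Log2 ratio of wild-type ZFP36L1 over GST (x axis) of each member of 11 gene classes, 1 point per gene, with (red) and without (grey) UAUUUAU in the 3' UTR, bars at the medians and dotted lines at 2-fold. Of the 25 SOX, FOX and HOX factors with the site none lies below the lower dotted line, and FASN is the red point on the far left among fatty acid synthesis genes.

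Windows around the site are shown for members of 6 classes, 5 higher and FASN lower, with FASN shown as a gene that holds the same letters and was lower. Capitals again mark the site.
RAP1B: atgcacaagatTATTTATtgccacactcta
HOXB5: gtgttctaactTATTTATaaaaagatgatc
STAG2: agtaaatatttTATTTATgcgctgttagtt
SPRY4: gtaaccataggTATTTATtgattggaggaa
NANOS1: aaaaaattgtgTATTTATacagtaacagta
FASN: ttggatttgcaTATTTATtgcattgctggt
They lie at chr12:68671366-68671395 (plus strand) for RAP1B, chr17:48591815-48591844 (minus) for HOXB5, chrX:124100821-124100850 (plus) for STAG2, chr5:142312396-142312425 (minus) for SPRY4, chr10:119031480-119031509 (plus) for NANOS1 and chr17:82078802-82078831 (minus) for FASN. FASN has 1 site in a 3' UTR of 810 bases and 63.3% GC. RAP1B has 5 sites in 12652 bases at 37.3% GC, STAG2 3 in 2059 bases at 29.5%, and SPRY4 4 in 3782 bases at 48.5%.

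By biotype, long non-coding RNAs resembled coding genes in their median and processed pseudogenes did not. Of 1477 long non-coding genes 346 were higher and 374 lower (median 0.09), and of 501 intergenic ones (lincRNA) 128 and 106 (0.12). The 135 compared genes with a LINC symbol had 38 higher and 30 lower, LINC01578 among them at 1595, 6980 and 1290 counts (2.01). Those with UAUUUAU anywhere in the transcript leaned higher, with 93 higher and 22 lower of 264 (median 0.69), against 218 and 311 of 1082 without it (-0.12). Above the median GC content the medians were 0.41 and -0.79, and below it 0.84 and 0.42. Across annotated long non-coding transcripts 11.7% of 12499 held the site. AC135457.1, an antisense RNA with 197, 1980 and 314 counts (3.21, 3.0 to 3.43), carries the 9-base form close to its 5' end, at base 14 of 664, on chr5:139369686-139369715 (minus strand). It is shown because it holds the site with no 3' UTR.
AC135457.1: agttctactatTATTTATttttttaaatat
SNHG8, a host of a small nucleolar RNA, had 540, 4446 and 650 counts (2.92, 2.79 to 3.05) without the site, and SNHG16, the most abundant host RNA, 5760, 10220 and 6970 (0.71). The host RNAs as a class had 6 of 22 in each direction. HOXA10-AS, on the strand opposite HOXA10, had 322, 2 and 299 (-7.13, -10.50 to -5.59), and VPS9D1-AS1 1278, 62 and 1031 (-4.48). Reads of an antisense RNA and of its partner cannot be told apart without strand.

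Processed pseudogenes, intronless copies of mRNAs, had 31 of 443 higher and 289 lower (median -1.96, and -1.62 set against genes of like GC content). Those of ribosomal protein genes had 5 of 157 higher and 109 lower (-2.28), and the others 26 of 286 and 180 (-1.71). They share much sequence with their parents, so that reads assigned to them are uncertain. RPL3P4, with 11836, 2208 and 14338 counts (-2.54), shares 100% of its 31-base words with other genes. The 58 processed pseudogenes that share under 10% had 5 higher and 38 lower (-1.62). Nuclear copies of mitochondrial genes went the other way with 8 of 23 higher and 1 lower (0.67), and the mitochondrial genome itself took 15.5% of counts with wild type against 10.6% with GST, a difference whose part in this was not tested. MTND2P28 had 372, 1460 and 240 counts (1.85), with 57.0% shared words, and MTCO1P12 34562, 43889 and 23301 (0.22). Unprocessed pseudogenes had 10 of 36 in each direction (0.01).

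Isoforms of 1 gene that differed in the site were compared in 278 genes with at least 50 counts for each isoform over both libraries. Of 26275 transcripts compared singly, 24% were higher, 43.5% lower and 67.5% either. The isoform with UAUUUAU in its 3' UTR had the higher ratio in 180 of the 278 genes (64.7%), and the median difference was 0.77 on the log2 scale. It also had the longer 3' UTR in 253 of them. In the 25 genes where it had the shorter one, it was higher in 19. With at least 20 counts in both libraries for both isoforms, a limit added after the values were seen, it was higher in 141 of 229 genes (61.6%) and the median difference was 0.51. In 1226 genes with 2 coding isoforms and no site in either, the isoform with the longer 3' UTR was higher in 689 (56.2%), with a median difference of 0.27, and in 460 of 869 (52.9%) and 0.09 with the added limit. The 2 sets of pairs were not alike. In the 278 genes, median 3' UTRs were 2576.5 bases with the site and 492 without, and the median GC difference was -1.74 percentage points. In the 1226 genes they were 639.5 and 322 bases, and -0.10. The part of length and GC content in the difference between the sets was not tested. Isoform counts are estimates from shared reads and carry more error than their intervals.

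**Figure D5:**
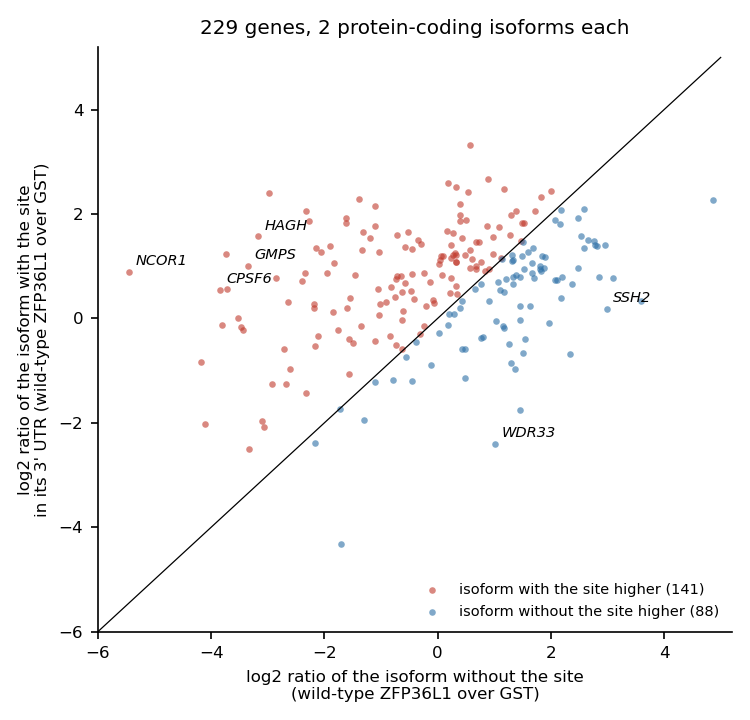
Log2 ratio of wild-type ZFP36L1 over GST for 2 protein-coding isoforms of each of 229 genes, the isoform without UAUUUAU in its 3' UTR on the x axis and the isoform with it on the y axis, with at least 20 counts in each library. Points above the diagonal (141, red) are genes whose isoform with the site had the higher ratio, NCOR1 and GMPS among them, and 88 (blue), WDR33 among them, lie below it.

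GMPS, which makes GMP, shows the pattern with counts for both isoforms in both libraries. EIF1 and NFYB show it with an isoform at an exact 0 with wild type, which may be a failed estimate. Of the 278 genes, 30 had an isoform at 0 in a library. The long GMPS isoform, with a 3' UTR of 6334 bases and the 9-base site, had 934, 2049 and 589 counts (1.01, 0.90 to 1.13), and the short one, with 18 bases and no site, 1478, 157 and 1214 (-3.35, -3.60 to -3.12). For EIF1, the start codon selection factor, the isoform with the site had 844, 8340 and 1103 (3.18) and the one without it 2473, 0 and 772. NFYB, a subunit of a CCAAT-binding factor, has isoforms with the same coding length of 624 bases. Its isoform with a 3' UTR of 2660 bases and the site had 310, 1265 and 283 (1.91), and that with 382 bases and no site 251, 0 and 174. HMGB1, a chromatin protein with isoforms of equal coding length, likewise had 1 isoform at an exact 0 with wild type, which may be a failed estimate. Its long isoform with the site had 711, 1168 and 273 (0.60), which met neither call, its short isoform 20963, 0 and 11833, and the whole gene 30937, 14736 and 17003 (-1.19). NCOR1, a nuclear receptor corepressor, had 628, 1274 and 472 (0.90) with the site and 982, 24 and 50 (-5.45) without. The reverse held for WDR33, a polyadenylation factor, and for SSH2, a cofilin phosphatase. WDR33 had 535, 110 and 574 (-2.40) for the isoform with the site and 484, 1067 and 503 (1.02) for that without. The WDR33 site lies within SFT2D3 on the opposite strand, so reads of these genes cannot be told apart there. SSH2 had 389, 482 and 278 (0.19) with the site against 287, 2479 and 244 (2.99). Sites of the first 4 genes are shown because, of each pair compared, only that isoform contains one.
GMPS: attgaaagcatTATTTATtcctaagattgg
EIF1: gacttgcagatTATTTATatatagtcgatc
NFYB: agcatttgctgTATTTATtaaaattattat
HMGB1: aatgtttgctgTATTTATtaattttcttaa
They lie at chr3:155940206-155940235 (plus strand) for GMPS, chr17:41691650-41691679 (plus) for EIF1, chr12:104119215-104119244 (minus) for NFYB and chr13:30458815-30458844 (minus) for HMGB1, at base 2525 of 6334, 835 of 1842, 504 of 2660 and 2524 of 2610 of their 3' UTRs.

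Isoforms annotated as non-coding held some of the largest single differences. Retained-intron transcripts as a whole had 550 of 2865 higher and 1392 lower (median -0.98), and nonsense-mediated decay transcripts 393 of 1617 and 753 (-0.71), beside 4252 of 17148 and 7471 for protein-coding transcripts (-0.48). Set against the main coding isoform of the same gene, the retained-intron transcript had the higher ratio in 551 of 934 pairs (median difference 0.46) and the decay transcript in 314 of 630 (0.00). In SRSF2, a splicing factor, the retained-intron isoform SRSF2-209 had 204, 15585 and 233 counts (6.13, 5.94 to 6.34), of 9903, 40582 and 10506 for the gene. In MDH1 the isoform MDH1-214 had 92, 5243 and 12, which is most of the 5901 wild-type counts of the gene. RPS18-235, from a ribosomal protein gene, had 35, 7374 and 623 (7.58), while the gene had 46277, 36830 and 62140 (-0.45) and met neither call. DYNLL1-210, from a dynein light chain gene, had 81, 6527 and 69 (6.2) and holds the site. The most abundant isoform differed between GST and wild type in 853 of 7046 genes with at least 100 counts in each library (12.1%), and between GST and the mutant in 659 (9.35%), values that share the GST library.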

How the data were processed

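RNA from the 3 pull-downs was sequenced on a BGISEQ-500, per the labels' protocols. kallisto, DESeq2 and hg19 are named in the submitters' processing notes, without versions or an annotation release. The deposited tables give kallisto estimated counts and TPM for 196354 transcripts, per the file headers. Of these 181854 (92.6%) were joined by Ensembl identifier to GENCODE 29 (GRCh38). The unmatched ones, with 3.92% of counts for GST, 3.79% for wild type and 4.20% for the mutant, were left out.

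Estimated counts were summed by gene, rounded and scaled with TMM (edgeR 4.0.16, factors 0.978 for GST and 1.02 for wild type). Log2 ratios used a prior count of 0.5, calls a 2-fold minimum and a 95% exact interval, and bounds against 0 a floor of 3 counts. GC content, length, 3' UTR and sites were read from the coding transcript of highest mean TPM in each gene. Setting a gene against genes of like GC content subtracted the median of its bin among 20 bins of GC content. No p-value was computed, since each group has 1 library. Counting and calls were tested on simulated data.

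Named genes were the 12 highest and 12 lowest coding genes and the 6 highest and 6 lowest long non-coding genes by the interval bound nearest to 0, at most 4 members of each class, and the 8 genes in each direction by isoform difference. Rankings with 30 counts in both libraries for genes and 20 for isoforms, and the choice of further members, were added after the values were seen. Members and lists were chosen with earlier results of these data known. Alternatives were other scalings, count minimums, a prior count of 5, deposited TPM (pseudocount 0.5) and protein-coding genes only. Some items are not reported here.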

Additional observations from a re-analysis of the deposited data

How the results depend on the processing

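No paired analysis was possible because each pull-down has 1 library, and for the same reason no replicate could be left out. Counts of genes called stayed within 1.5 times under all scalings, minimums and prior counts tried: 2389 to 4068 higher and 3204 to 5539 lower, beside 3462 and 4724. These counts also follow the number of genes compared. The 2389 and 3204 came from 9556 genes at a minimum of 100 counts, and the 5539 from 23505 genes without a minimum, beside 13916. Of the genes called, 40.6% to 47.8% were higher, beside 42.3%. Dividing by totals without the 20 most abundant genes shifted log2 ratios by a median of 0.15 over the genes shared with the reported setting, TPM by 0.24 and a minimum of 100 counts by -0.11. The medians below are relative to that of all genes. Of 36 classes most stayed within the interval of their own median, which is wide where members are few. Centring on GC content moved tetraspanins to -0.030, SOX, FOX and HOX factors to 1.49, WNT genes to 1.42 and sense-intronic RNAs to -0.39. Large shifts also passed as unmoved. Antigen presentation genes went from -1.99 to 0.22 and RNA polymerase subunits from -1.23 to 0.23. Ephrins and Eph receptors went from -2.04 to -0.42, and histone deacetylases and sirtuins from -1.66 to -0.58. TNF receptors went from 0.64 to 1.39. Leaving out the minimum count gave 1.16 for SOX, FOX and HOX factors, 1.42 for CCT and prefoldin, 0.36 for lincRNA, 0.25 for antisense RNA and 0.27 for protein-coding genes. A minimum of 100 gave 0.23 for WNT genes, 1.34 for LINC genes, 0.22 for mitochondrial pseudogenes, 0.55 for lincRNA, -0.38 for sense-intronic RNAs and -0.0039 for protein-coding genes, which changed sign from 0.05. A prior count of 5 gave -1.68 for ribosomal protein pseudogenes and -1.47 for processed pseudogenes, and TPM -1.51 for the latter and 0.28 for lincRNA. In the 5 bins of GC content the distance between genes with and without the site, 1.76 over all coding genes, was 0.41, 0.52, 0.94, 1.98 and 2.53. The cause of these moves was not tested. No called gene among the 279 named changed direction under a setting in which it was compared, and fewer of them were compared under TPM and the minimum of 100. TPM ended 9 of their calls and added 4. Depth limits the genes listed at 0 or a few counts, whose ratios depend on the floor.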
